A study of Ogataea polymorpha NCYC 495 leu1.1 with 8 samples.

Results

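The genes encoding 6 enzymes that lead from oxaloacetate and pyruvate towards sugar phosphates were followed in the methylotrophic yeast Hansenula polymorpha. They were chosen by the role of the enzyme, as named in the study, and are 6 of the 5999 genes on the array. The genes of phosphoenolpyruvate (PEP) carboxykinase (Hp5g547), fructose 1,6-bisphosphatase (Hp46g88) and pyruvate carboxylase (Hp18g102) encode steps that lead around irreversible steps of glycolysis. They are called the gluconeogenesis genes here, although pyruvate carboxylase also has other roles. The genes of fructose 1,6-bisphosphate aldolase (Hp47g1019), enolase (Hp27g405) and phosphoglycerate mutase (Hp37g8) encode reversible steps that glycolysis and gluconeogenesis share.

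Gluconeogenesis makes glucose phosphates from smaller carbon compounds when no sugar is supplied. It uses the reversible enzymes of glycolysis in the opposite direction and bypasses the irreversible ones with enzymes of its own. In yeasts the bypass enzymes PEP carboxykinase and fructose 1,6-bisphosphatase are known for their repression by glucose. On methanol, the carbon that a cell keeps enters as formaldehyde, which dihydroxyacetone synthase joins to xylulose 5-phosphate in the peroxisome. The products are dihydroxyacetone and glyceraldehyde 3-phosphate, and aldolase and fructose 1,6-bisphosphatase then take part in returning a share of this carbon to pentose phosphates.

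Cells of strain NCYC 495 leu1.1, a leucine auxotroph used for all samples, were cultivated on glucose in batch at 37 °C up to an optical density at 660 nm of 2.3. They were then moved to fresh mineral medium with 0.5% methanol at an optical density of 0.2 and sampled after 2 hours. This was done in 4 independent cultures, and the glucose and the methanol RNA of each culture were compared on a pair of two-colour arrays that differed in the labelling, so that 8 arrays were used. The change of carbon source cannot be told apart from the move to fresh medium at a lower density, and RNA was taken from whole cultures, so that a change in every cell and a change in some cells cannot be told apart either.

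As a check of the labels, the genes of alcohol oxidase, dihydroxyacetone synthase and formate dehydrogenase, which serve methanol use, had log2 ratios of methanol over glucose of 3.43, 3.91 and 7.83, positive in all 4 cultures. Between 90.6% and 98.3% of the gene spots were well above background in a channel. Culture 1 stood apart. Across genes, which are not independent replicates, its log2 ratios correlated with those of the other cultures at r between 0.894 and 0.934, against 0.968 to 0.978 among cultures 2, 3 and 4. Results that rest on culture 1 are therefore given with and without it.

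Of the 6 genes, 2 were called upregulated and 0 downregulated, against 19.1% and 21.4% of all genes. A call needed more than a 2-fold change in either direction, an adjusted p below 0.05 (limma, Benjamini-Hochberg over 5999 genes) and a minimum of 6 for the A-value, the mean log2 signal of both channels. All 6 genes passed the A-value minimum, with A-values between 11.23 and 17.22. With no limit on the fold change and an adjusted p below 0.05, 3 of the 6 rose, against 38.7% of all genes, and 0 fell, against 36.6%. The count of 0 downregulated was 1, enolase, at an unadjusted p and with Cyber-T on log2 ratios, which counts the 16 spots of 4 cultures as replicates. With the arithmetic mean of spot ratios that the study's methods use, enolase was at -0.74 and was not called. Aldolase was at 1.05 there, past 2-fold, and was not called either. For this setting the adjusted p of the log2 fit was kept, which was 0.156 for aldolase (limma). The median log2 ratio was 0.81 for the 6 genes and 0.04 for all genes.

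The 3 gluconeogenesis genes all had higher transcript levels on methanol, in every culture and on each of the 8 arrays. PEP carboxykinase, which turns oxaloacetate into PEP, was 5.89-fold higher and fructose 1,6-bisphosphatase, which removes a phosphate from fructose 1,6-bisphosphate, was 4.37-fold higher. Pyruvate carboxylase, which makes oxaloacetate from pyruvate, was 1.87-fold higher and thus stayed under the threshold of 2-fold. A log2 ratio above 0 in all 4 cultures was found for 41.3% of all genes.

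The processed signal of PEP carboxykinase in cultures 1 to 4 was 1500, 1650, 818 and 477 on glucose. On methanol it was 11200, 5220, 3290 and 6040. All methanol signals lay above all glucose signals, as they did for 20.0% of all genes, and the change was larger in cultures 1 and 4 than in cultures 2 and 3. The log2 ratios were 2.90, 1.66, 2.01 and 3.66, with a mean of 2.56 ± 0.90 (SD, n = 4), a 95% confidence interval of 1.73 to 3.39 and an adjusted p of 7.57e-04 (limma). The gene ranked at position 318 of all genes by its mean log2 ratio.

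Fructose 1,6-bisphosphatase gave signals of 15900, 13900, 10900 and 14400 on glucose in cultures 1 to 4. Its signals on methanol were 80400, 63400, 36800 and 67600. All methanol signals again lay above all glucose signals, as for 20.0% of all genes, and culture 3 was the lowest under both conditions. The log2 ratios were 2.34, 2.19, 1.76 and 2.23, and their mean was 2.13 ± 0.26 (SD, n = 4), with a confidence interval of 1.82 to 2.44 and an adjusted p of 3.48e-05 (limma). This placed the gene at position 429, and it was called upregulated, like PEP carboxykinase, in all 24 alternative settings with a test.

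Pyruvate carboxylase replenishes the oxaloacetate of the citric acid cycle and, in H. polymorpha, is also known for a part in the assembly of peroxisomal alcohol oxidase. Its glucose signals were 49300, 29500, 31300 and 47000, and its methanol signals were 102000, 56800, 57200 and 79200 in cultures 1 to 4. Here too the highest glucose signal stayed below the lowest methanol signal, as for 20.0% of all genes. The log2 ratios of 1.04, 0.95, 0.87 and 0.75 averaged 0.90 ± 0.12 (SD, n = 4), with a confidence interval of 0.66 to 1.15 and an adjusted p of 3.32e-04 (limma). The rise was small but even, and only culture 1 passed 2-fold.

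**Figure D1:**
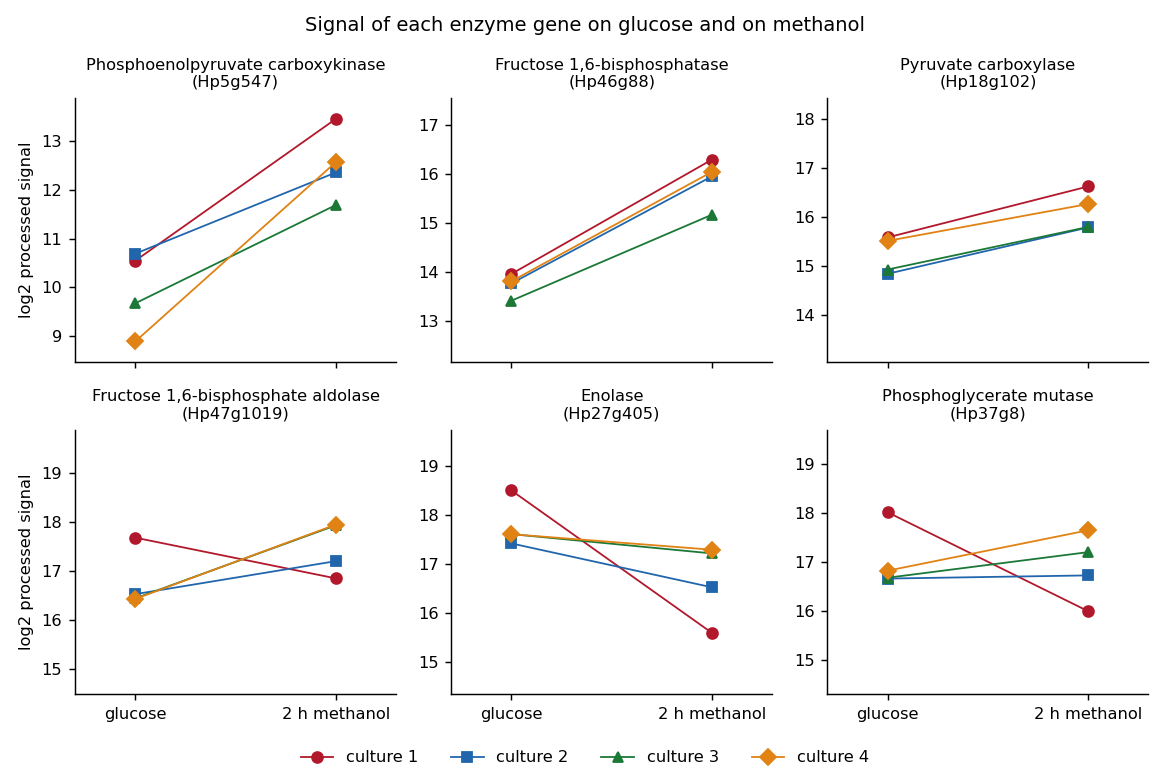
Log2 processed signal of the 6 genes on glucose and after 2 hours on methanol; each line joins the samples of 1 culture (mean of 2 arrays), and every panel spans the same number of log2 units. The 3 genes of gluconeogenesis rise in every culture, whereas aldolase, enolase and phosphoglycerate mutase in culture 1 start highest and end lowest.

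The 3 genes of shared reversible steps were not called in either direction. Their mean log2 ratios were 0.71 for aldolase, -0.15 for phosphoglycerate mutase and -1.13 for enolase, and all 3 were far lower in culture 1 than in the other cultures. Without culture 1 aldolase was called upregulated, and phosphoglycerate mutase changed from a mean below 0 to one above 0.

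Aldolase joins dihydroxyacetone phosphate and glyceraldehyde 3-phosphate to fructose 1,6-bisphosphate and also splits it. Its signals on glucose were 209000, 94100, 88700 and 88000 in cultures 1 to 4, and those on methanol were 118000, 150000, 250000 and 252000. The ranges overlapped, because culture 1 was the highest on glucose and the lowest on methanol. The log2 ratios were -0.83, 0.67, 1.49 and 1.52, with a mean of 0.71 ± 1.1 (SD, n = 4), a confidence interval of -0.29 to 1.71 and an adjusted p of 0.156 (limma). Without culture 1 the mean was 1.23, with an adjusted p of 0.00135 (limma), and the gene was called.

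Enolase converts 2-phosphoglycerate to PEP and back. Its signals in cultures 1 to 4 were 370000, 175000, 199000 and 199000 on glucose and 49200, 93900, 152000 and 160000 on methanol. All methanol signals were below all glucose signals, as for 21.8% of all genes, but the distance was small in cultures 3 and 4. The log2 ratios were -2.91, -0.90, -0.39 and -0.32, with a mean of -1.13 ± 1.21 (SD, n = 4), a confidence interval of -2.23 to -0.03 and an adjusted p of 0.0596 (limma; unadjusted p = 0.0456). A log2 ratio below 0 in all 4 cultures was found for 39.1% of all genes. Without culture 1 the mean was -0.54, with an adjusted p of 0.0138 (limma) and a fold change within the 2-fold limit. Enolase was called downregulated in 7 of 24 alternatives, among them the fit without culture 4 (-1.40, adjusted p = 0.05, limma).

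Phosphoglycerate mutase interconverts 3-phosphoglycerate and 2-phosphoglycerate, the step next to enolase. On glucose its signals were 264000, 103000, 104000 and 115000 in cultures 1 to 4, and on methanol 65000, 108000, 150000 and 204000. As for aldolase, culture 1 was highest on glucose and lowest on methanol, and the ranges overlapped. The log2 ratios were -2.02, 0.06, 0.52 and 0.83, with a mean of -0.15 ± 1.28 (SD, n = 4), a confidence interval of -1.31 to 1.01 and an adjusted p of 0.781 (limma). The 3 other cultures had a mean of 0.47 (adjusted p = 0.035, limma), which is under the 2-fold limit.

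The distance of culture 1 from the mean of the other cultures was -2.06 on the log2 scale for aldolase, -2.37 for enolase and -2.49 for phosphoglycerate mutase. For the gluconeogenesis genes it was 0.45 for PEP carboxykinase, 0.28 for fructose 1,6-bisphosphatase and 0.18 for pyruvate carboxylase. The log2 ratio was lowest in culture 1 for 3 of 6 genes, namely the 3 shared steps, and for 36.3% of all genes. Culture 1 shared its row on the slide with culture 2, as inferred from the names of the scans, since the sample labels give no row. The mean within that row and within the row of cultures 3 and 4 was -0.08 and 1.51 for aldolase, -1.90 and -0.36 for enolase, and -0.98 and 0.67 for phosphoglycerate mutase. For PEP carboxykinase these means were 2.28 and 2.84, for fructose 1,6-bisphosphatase 2.26 and 2.00, and for pyruvate carboxylase 0.99 and 0.81. With the row as a block, enolase was called downregulated (adjusted p = 0.0312, limma), and the calls of the other genes did not change. The adjusted p was then 0.0557 for aldolase and 0.711 for phosphoglycerate mutase (limma). The part of the row in these results was not tested beyond these values.

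The genes differed widely in how well the cultures repeated each other. The SD of the log2 ratio over the 4 cultures had a median of 0.26 over all genes. Phosphoglycerate mutase, enolase and aldolase were at the 99.3rd, 99.2nd and 98.6th percentile of this SD among genes with an A-value of at least 6. PEP carboxykinase was at the 97.0th percentile, fructose 1,6-bisphosphatase near the middle at 51.9 and pyruvate carboxylase low at 14.9.

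**Figure D2:**
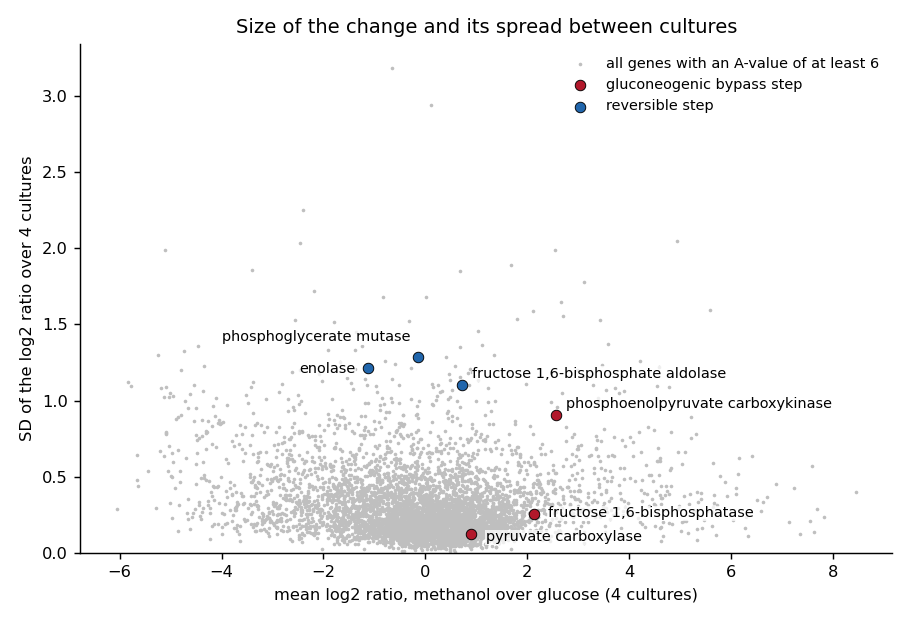
Mean log2 ratio (horizontal axis) and its SD over 4 cultures (vertical axis, log2 units) for all genes with an A-value of at least 6 (grey) and for the 6 genes. The 3 shared steps, with means of 0.71, -0.15 and -1.13, have an SD above 1, and pyruvate carboxylase and fructose 1,6-bisphosphatase have an SD of 0.12 and 0.26.

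To see on which side the spread lay, levels were also taken relative to the median of all genes in the same channel. On this scale the levels of PEP carboxykinase spanned 2.32 log2 units over the cultures on glucose but 0.90 on methanol. Culture 4, which had the highest ratio, was the lowest on glucose at -2.62, while the others lay between -1.05 and -0.31. The methanol levels lay between 1.00 and 1.90. Without subtraction of the channel median the spans were 1.79 and 1.76, so that the difference between glucose and methanol depended on the scaling.

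Enolase showed the opposite order, with a span of 0.83 on glucose and 2.48 on methanol (1.08 and 1.70 without the subtraction). Culture 1 was at 4.04 on methanol, against 5.57 to 6.52 in the others. On glucose it was at 6.91, against 6.08 to 6.88, so that the methanol and glucose ranges overlapped on this scale. For phosphoglycerate mutase the span was 1.13 on glucose and 2.06 on methanol (1.35 and 1.65 without the subtraction). For aldolase it was 1.19 and 1.94, but 1.25 and 1.1 without the subtraction, which turned the order. In both, culture 1 remained the highest on glucose and the lowest on methanol. Aldolase in culture 1 was at 6.09 on glucose, against 4.90 to 5.71 in the others, and at 5.30 on methanol, against 6.24 to 7.24. Phosphoglycerate mutase in culture 1 was at 6.43 on glucose and 4.44 on methanol, while the others lay between 5.29 and 5.95 and between 5.77 and 6.51. Fructose 1,6-bisphosphatase spanned 0.48 on glucose and 0.52 on methanol, and pyruvate carboxylase 0.36 and 0.31, without overlap between the conditions.

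The labelling entered the size of the ratios. The difference between the array with methanol in Cy5 and the array with glucose in Cy5 of the same culture was positive in 4 of 4 cultures for each of the 6 genes (exact two-sided sign-flip permutation test, p = 0.125 each and adjusted, the smallest p that 4 cultures allow). It was 0.30 ± 0.07 for PEP carboxykinase, 0.22 ± 0.17 for fructose 1,6-bisphosphatase and 0.27 ± 0.23 for pyruvate carboxylase (log2, SD, n = 4). By size these were at the 87.1st, 74.6th and 83.4th percentile of genes with an A-value of at least 6. The difference was larger for the shared steps, at 0.99 ± 0.016 for aldolase, 1.16 ± 0.20 for enolase and 0.78 ± 0.15 for phosphoglycerate mutase. These were at the 98.9th, 99.2nd and 98.0th percentile. The median size of the difference was 0.12 over all genes with an A-value of at least 6. It was 0.44 over the 221 genes with an A-value of at least 15. The part of brightness in these differences was not tested.

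With both orientations in the mean of each culture a constant dye difference cancels, but a ratio from 1 orientation does not carry the same sign for every gene. Enolase had a mean of -1.71 with glucose in Cy5 and -0.55 with methanol in Cy5. In cultures 3 and 4 its ratio was negative on the array with glucose in Cy5 (-0.99 and -0.81) and positive on the other (0.20 and 0.18). Phosphoglycerate mutase went from -0.54 to 0.24 and aldolase from 0.22 to 1.21. In cultures 3 and 4 the difference between the labellings of enolase exceeded the size of its mean ratio in the same culture. PEP carboxykinase, at 2.41 and 2.71, and fructose 1,6-bisphosphatase, at 2.02 and 2.24, were above 2-fold in both.

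All 32 readings of each gene (16 spots, 2 channels) were well above background and none was marked as an outlier. The spots of 1 array differed by at most 0.26 log2 units. The arrays were scanned at a high and a low sensitivity, and bright readings were taken from the low scan by the extraction software. This was so for 0 of 32 readings of PEP carboxykinase, 22 of fructose 1,6-bisphosphatase, 31 of enolase and all 32 of pyruvate carboxylase, aldolase and phosphoglycerate mutase. Only 1 reading, of enolase, was saturated.

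**Figure D3:**
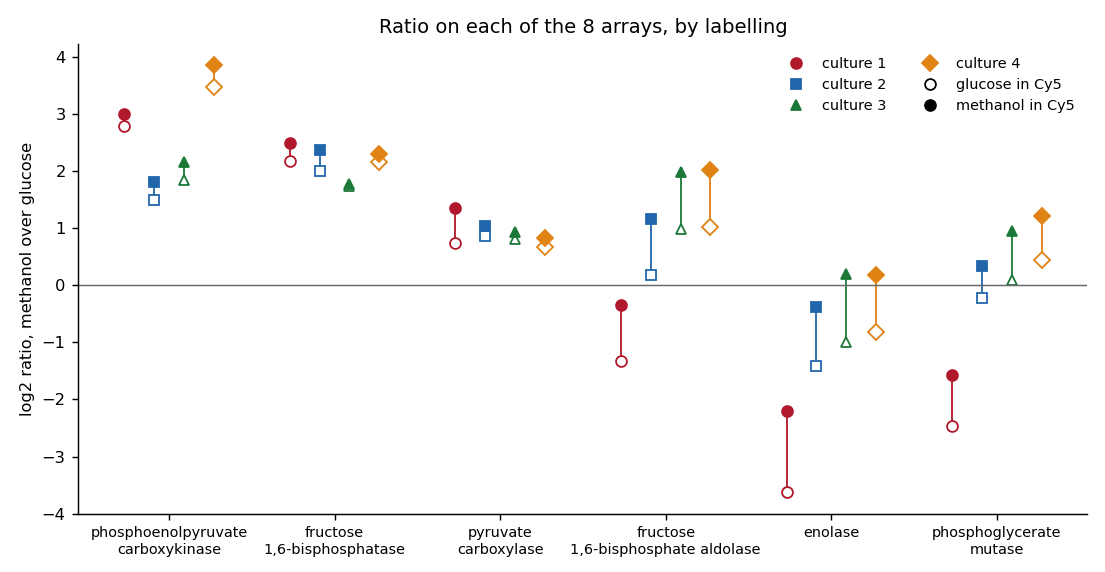
Log2 ratio of methanol over glucose on each of the 8 arrays, with open symbols for glucose in Cy5 and filled symbols for methanol in Cy5; a line joins the arrays of a culture. Filled symbols lie above open ones in every culture, by about 1 log2 unit for aldolase and enolase and by 0.22 to 0.30 for the 3 gluconeogenesis genes on average.

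The groups of enzymes were then compared within cultures. The mean log2 ratio of the 3 gluconeogenesis genes was 2.09, 1.60, 1.55 and 2.22 in cultures 1 to 4, or 1.86 ± 0.34 (SD, n = 4). That of the 3 shared steps was -1.92, -0.05, 0.54 and 0.68, or -0.19 ± 1.20. The gluconeogenesis genes stood higher in each culture, by 4.01, 1.65, 1.00 and 1.54, with a mean difference of 2.05 ± 1.34, or 4.15-fold. In the exact two-sided sign-flip permutation test p was 0.125 before and after adjustment over the 5 differences tested, which is the smallest p possible with 4 cultures. The mean difference was 1.40 without culture 1.

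Steps at which opposing enzymes act were compared in the same way. Fructose 1,6-bisphosphatase reverses phosphofructokinase, and its log2 ratio exceeded the mean of the alpha and beta subunits of phosphofructokinase by 5.08, 3.96, 2.60 and 2.91 in cultures 1 to 4. The mean was 3.64 ± 1.12, or 12.5-fold, and 3.16 without culture 1. Cultures 1 and 2 were above cultures 3 and 4, which came from the phosphofructokinase ratios more than from fructose 1,6-bisphosphatase.

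PEP carboxykinase and pyruvate carboxylase together bypass pyruvate kinase, which forms pyruvate from PEP. PEP carboxykinase exceeded pyruvate kinase by 6.13, 2.40, 1.83 and 3.20, with a mean of 3.39 ± 1.91 (10.5-fold) and 2.48 without culture 1. Pyruvate carboxylase exceeded it by 4.28, 1.68, 0.69 and 0.29, with a mean of 1.74 ± 1.79 (3.33-fold) and 0.89 without culture 1. Pyruvate kinase (Hp39g227) was at -3.24, -0.74, 0.18 and 0.46. The range of the pyruvate carboxylase difference is mostly that of pyruvate kinase, as pyruvate carboxylase lay between 0.75 and 1.04. In the PEP carboxykinase difference both genes varied, with PEP carboxykinase between 1.66 and 3.66. The exact two-sided sign-flip permutation p was 0.125 for each of these differences, before and after adjustment, and all were positive in 4 of 4 cultures.

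Among the shared steps the order was the same in each culture. Aldolase stood above the mean of enolase and phosphoglycerate mutase by 1.63, 1.09, 1.43 and 1.26, with a mean of 1.35 ± 0.23, or 2.56-fold (exact two-sided sign-flip permutation test, p = 0.125 before and after adjustment). Phosphoglycerate mutase stood above enolase by 0.89, 0.96, 0.92 and 1.14, with a mean of 0.98 ± 0.11. These differences varied far less than the ratios themselves, whose SDs were 1.1 to 1.28. In culture 1 the 3 shared steps were thus displaced by a like amount. Between the gluconeogenesis genes the order was less even. PEP carboxykinase minus fructose 1,6-bisphosphatase was 0.56, -0.53, 0.25 and 1.43, with a mean of 0.43 ± 0.81, and both stood above pyruvate carboxylase in all cultures, by 1.65 ± 0.96 and 1.23 ± 0.25. These last pairs are given as descriptions and were not tested.

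**Figure D4:**
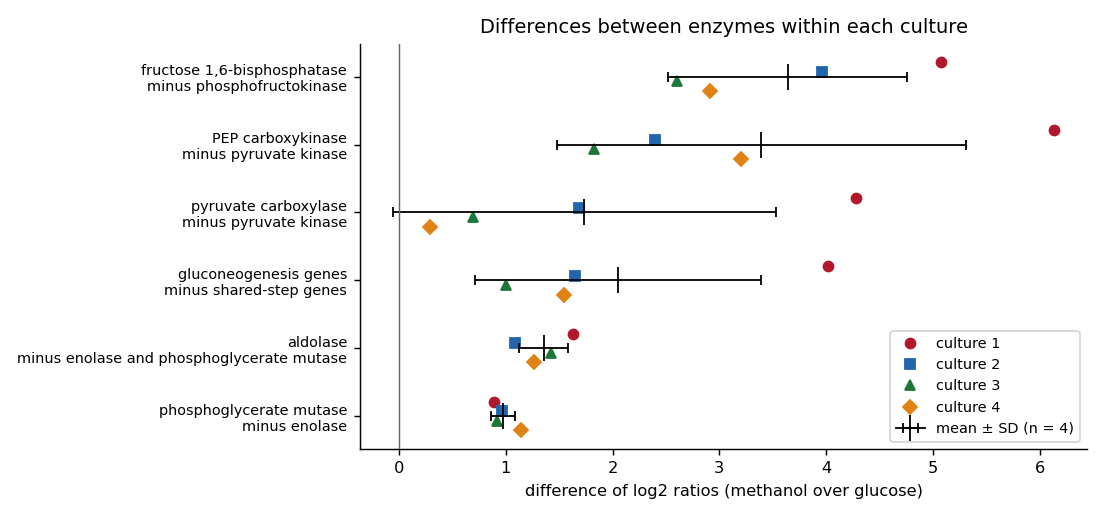
Difference of log2 ratios (methanol over glucose) between enzymes within each culture, with symbols for cultures and the mean ± SD (n = 4) in black. All differences are above 0, and culture 1 is the highest in the 4 differences between gluconeogenesis genes and shared or glycolytic genes.

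The other genes of the pathway show where the 6 genes stand. The 4 other reversible steps, catalysed by glucose-6-phosphate isomerase, triosephosphate isomerase, glyceraldehyde-3-phosphate dehydrogenase and 3-phosphoglycerate kinase, had mean log2 ratios between -1.24 and -0.65. Of these genes 0 of 4 were called, while 19.1% of all genes were called upregulated and 21.4% downregulated. Without culture 1 the 4 means lay between -0.59 and -0.16. Aldolase was thus the reversible step with the highest mean ratio among 7, and phosphoglycerate mutase the next. In each of the 7 reversible steps culture 1 was the lowest, with medians of -2.11, -0.56, -0.25 and -0.11 in cultures 1 to 4. The spread of aldolase, enolase and phosphoglycerate mutase was therefore shared by the other reversible steps, whose SDs were at the 96.7th to 99.5th percentile. It was not particular to reversible steps. The SDs of the genes used only in glycolysis were at the 96.8th to 99.8th percentile. Those of the pyruvate dehydrogenase subunits were at the 95.6th and 95.7th.

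Of the 5 genes of glycolysis-only steps 4 were called downregulated and 0 upregulated, against 21.4% and 19.1% of all genes. Pyruvate kinase was not called (-0.83 ± 1.68, adjusted p = 0.256, limma). The median log2 ratio of the 5 genes was -1.80. The log2 ratio was lowest in culture 1 for 5 of 5, against 36.3% of all genes. Without culture 1, 3 of 5 were called, as the phosphofructokinase beta subunit (-0.77) was not, and pyruvate kinase was at -0.03. Without culture 2, 2 of 5 were called, as glucokinase (adjusted p = 0.0933, limma) and the beta subunit (0.0764) were not. Glucokinase was not called without culture 3 either (adjusted p = 0.0501, limma). Hexokinase had the lowest mean, at -3.41 ± 1.86, or -2.64 without culture 1. Of the pyruvate dehydrogenase subunits 0 of 2 were called, although the beta subunit, at -0.98, had an adjusted p of 0.0267 (limma).

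Upstream of PEP carboxykinase, C4 acids can be made from acetyl-CoA by the glyoxylate cycle. Isocitrate lyase and malate synthase, the enzymes particular to that cycle, were called upregulated at 4.85 ± 0.19 (28.8-fold) and 3.01 ± 0.61 (8.07-fold). Isocitrate dehydrogenase, which is not a step of that cycle, was called upregulated at 4.61 ± 0.16 (24.4-fold). Thus 3 of 3 genes were called upregulated, against 19.1% of all genes. Their median log2 ratio was 4.61, and their median in each culture was above the log2 ratio of PEP carboxykinase. Malate synthase alone was below PEP carboxykinase in culture 4 (2.54 against 3.66). Only isocitrate lyase was lowest in culture 1, by a small margin (4.69 against 4.72 to 5.09), whereas the shared steps were lower there by 2.06 to 2.49 on average.

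**Figure D5:**
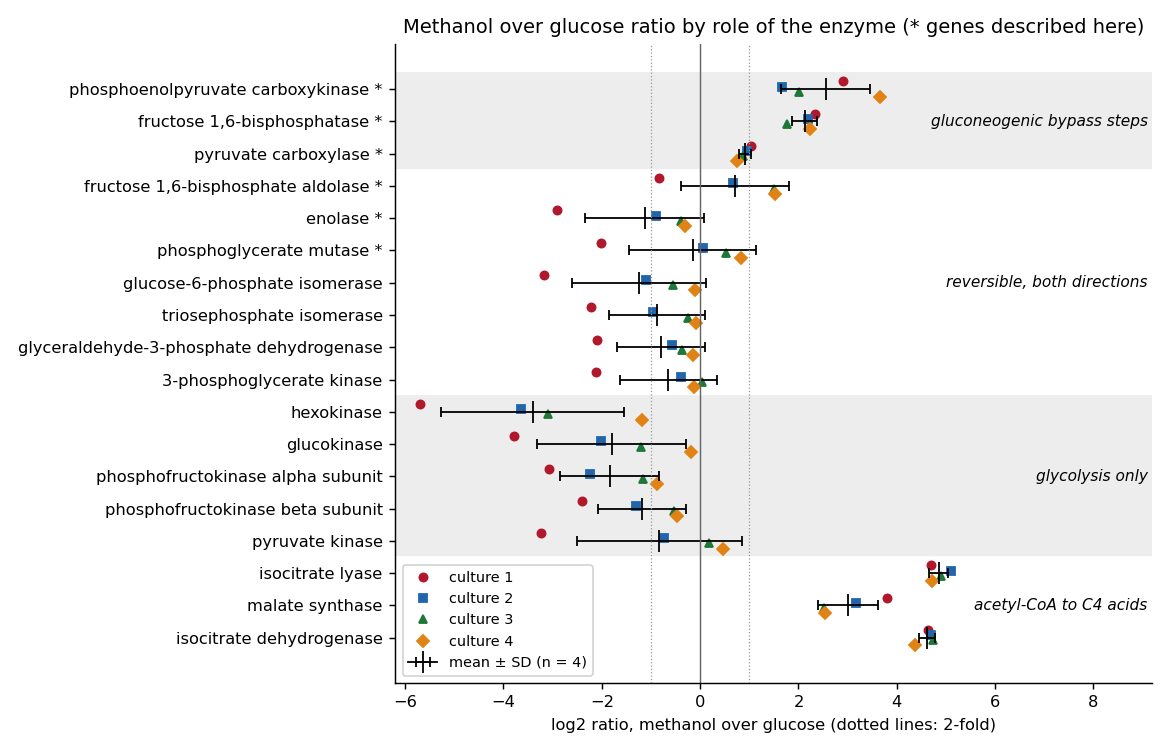
Log2 ratio of methanol over glucose in each of 4 cultures (symbols) and mean ± SD (black) for 18 pathway genes, grouped by the direction in which the enzyme works; asterisks mark the 6 genes and dotted lines a 2-fold change. The gluconeogenesis genes lie right of 0 in all cultures, and the reversible and glycolytic genes have culture 1 as the leftmost point. Isocitrate dehydrogenase is plotted beside the glyoxylate cycle genes but is not a step of that cycle.

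The likeness between genes was measured as the root mean square difference of the log2 ratios over the 4 cultures. The candidates were 30 other genes, which the study lists under glycolysis, gluconeogenesis or as related to the beta-oxidation of fatty acids. PEP carboxykinase was nearest to fructose 1,6-bisphosphatase (0.82) and to subunit 2 of the peroxisomal ABC transporter (Hp33g390, 0.85). Fructose 1,6-bisphosphatase was nearest to the same transporter subunit (0.66), and pyruvate carboxylase to the adenine nucleotide transporter (Hp44g158, 0.75). For enolase and phosphoglycerate mutase the nearest distances were shorter. Enolase lay 0.21 from glucose-6-phosphate isomerase and 0.35 from the phosphofructokinase beta subunit, and phosphoglycerate mutase 0.58 from 3-phosphoglycerate kinase. The nearest genes to aldolase were phosphoglycerate mutase at 0.90 and pyruvate carboxylase at 1.07. This measure also counts a constant distance between 2 genes. Aldolase stood above phosphoglycerate mutase by 0.87 ± 0.27 and above enolase by 1.84 ± 0.21 (SD, n = 4), so that it followed both across cultures.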

How the data were processed

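The authors scanned two-colour Agilent arrays and deposited the output of Feature Extraction version 9.5. Its processed signal is the intensity of a dye in a spot, spatially detrended and normalized between dyes. A deposited series table holds log10 ratios (methanol over glucose), whose values stand 5 positions from their identifiers. After that shift they equalled the Feature Extraction ratios (largest difference 0), and the table served as an alternative.

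Log2 ratios of processed methanol over glucose signals were averaged over the 2 spots of a probe, without outlier-marked spots, and then over the 2 arrays of a culture, so that n = 4. An intercept was fitted per gene in limma 3.58.1 (R 4.3.3) with empirical Bayes moderation. In simulated ratios of this comparison, 200 of 5999 genes were changed. An adjusted p below 0.05 (limma) recovered 89% of those changed by 1.5 log2 units and 93% of those changed by 2. The fold and A-value limits of a call were not applied there. These rates are averages over genes and were not taken for genes with SDs as large as those of the shared steps. The number of arrays limits the precision. Tables and plots were made with Python 3.11.15, numpy 2.4.6, pandas 2.3.3 and matplotlib 3.10.9.

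The 6 genes, the lists, the tests and the alternatives were chosen with earlier results of these data known. Named were the 6 genes and the 2 nearest genes by likeness. Also named were the other glycolysis, pyruvate dehydrogenase, glyoxylate cycle and isocitrate dehydrogenase genes that the study lists. Of the gene identifiers 0 of 5999 occur in the reference annotation (5233 genes), so that no positions or sequences are given, and names are those of the study. Glucose and methanol samples were paired by culture, from the labels. The deviations of the channels of a culture correlated at r between 0.247 and 0.453, but both come from the same arrays. Alternatives were other background corrections, normalizations, centring, averaging, labelling, filters and tests, the row as a block, no replicate block, and each culture left out.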

Additional observations from a re-analysis of the deposited data

Results flagged for a closer look

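In 2 of the 18 groups of 4 values that were checked (the glucose levels, the methanol levels and the ratios of the 6 genes), 1 culture stood off from the other 3 by more than Dixon's 95% critical value allows. Chance marks about 1 in 20 such groups. Both values belong to culture 1 on glucose. The log2 level of aldolase (Hp47g1019) was 17.68 there, against 16.43 to 16.52 in the other cultures. The log2 level of phosphoglycerate mutase (Hp37g8) was 18.01, against 16.66 to 16.82. Enolase in culture 1 was also the highest on glucose, at 18.50 against 17.42 to 17.61. Relative to the median of all genes in the channel, no level of the 6 genes passed the critical value: the largest gap over the range of the 4 glucose levels was 0.521 for aldolase and 0.424 for phosphoglycerate mutase. In the log2 ratios the gap over the range was 0.641 for aldolase, 0.776 for enolase and 0.733 for phosphoglycerate mutase, and none of these passed the critical value.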

How the results depend on the processing

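PEP carboxykinase (2.19 to 2.86) and fructose 1,6-bisphosphatase (2.02 to 2.25) were called upregulated in all 24 alternatives with a test. Upregulated genes among the 6 were 4 with methanol in Cy5 only, where pyruvate carboxylase (1.04) and aldolase (1.21) joined, and 2 to 3 with each culture left out. Downregulated genes were 1 (enolase) with glucose in Cy5 only, a dye term, an unadjusted p, Cyber-T, a block for the row of arrays and no replicate block, and 0 to 1 with each culture left out. In the main setting 19.1% of all genes were called upregulated and 21.4% downregulated. The shares of all genes in most alternatives are not given here. The counts among the 6 can therefore not be set against them. Without the replicate block, which the pairing by culture supplies, enolase had an adjusted p of 0.00845 (limma) at the same mean. The mean of phosphoglycerate mutase turned positive when spot ratios were averaged without logarithms (0.22) and with methanol in Cy5 only (0.24). With each culture left out it was between -0.48 and 0.47, and above 0 only without culture 1. Over all genes 760 were called upregulated in a test against a 2-fold change (treat), against 1145, and 1108 to 1170 with each culture left out. The 5 tested differences between enzymes kept their direction in 15 of 15 alternatives each. Subtracting the channel median changed the span of methanol levels to 0.90 for PEP carboxykinase, 0.52 for fructose 1,6-bisphosphatase, 0.31 for pyruvate carboxylase and 1.94 for aldolase, from 1.76, 1.13, 0.84 and 1.1. Other scalings moved the median of all genes by less than 0.1. For the sign change of phosphoglycerate mutase the cause was not tested. The 3 shared steps are bright, with 31 or 32 of 32 readings from the low-sensitivity scan. Such readings also made up 32 of 32 for pyruvate carboxylase and 22 of 32 for fructose 1,6-bisphosphatase. The part of the scan was not tested.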
